A study of Mus musculus with 2 samples.

Results

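Gas5 and the small nucleolar RNA host genes Snhg1, Snhg5, Snhg6, Snhg8 and Snhg12 were taken by gene symbol from the transcript names of the deposited tables, which gave 6 genes of 55536 annotated genes. The rule uses symbols only, not measured values. The data are total RNA sequencing of left cerebral cortex from 2 females of the B6CASTF1/J strain, a cross that the labels also write as B6 X Cast, aged 8 to 10 months. Neither animal was treated, so the only group holds 2 libraries, and each was made from 300 ng of RNA with ERCC spike-ins, which are synthetic transcripts added to the sample. Replicate 1 is the animal numbered 1 and replicate 2 the animal numbered 5. The labels give both the same donor entry, so their separation rests on those numbers.

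Small nucleolar RNAs (snoRNAs) guide the chemical modification of ribosomal and other RNAs. Box C/D snoRNAs direct ribose methylation and box H/ACA snoRNAs direct pseudouridylation, each in a particle with its own core proteins. In mammals most are cut out of the introns of a host gene. The spliced exons of a noncoding host have no long reading frame, and many such RNAs are turned over by nonsense-mediated decay, a surveillance pathway for translated RNAs with early stop codons. Several hosts begin with a 5′ terminal oligopyrimidine tract, the C and T (in RNA, U) run that links the translation of ribosomal protein mRNAs to growth signals. Gas5, named growth arrest-specific, accumulates in growth-arrested cells and is also known for binding the glucocorticoid receptor.

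The members differ in the snoRNAs they carry, so a few of those are shown first. By position on the same strand, 27 snoRNA entries of the annotation lay within the 6 genes. Gas5 held 10, Snhg1 held 8, Snhg12 held 5, Snhg5 held 2, and Snhg6 and Snhg8 held 1 each. Overlapping entries of the same snoRNA (Snord80 in Gas5 and Snora16a in Snhg12) count as 2, and the Gas5 entry named Mir5117 is typed as a snoRNA there. In the lines that follow, capitals mark the box C letters TGATGA within the first 20 bases and the box D letters CTGA within the last 20, shown where both were found. The search used the gene's own strand. Both were present in 17 of the 27 entries, or 63.0%, against 309 of all 1507 annotated snoRNA genes, or 20.5%, a total that also holds box H/ACA snoRNAs. Sequences were read from the GENCODE M21 transcripts of build mm10, 5′ to 3′. Snord47 and Snord80 show the form typical of Gas5. The annotated start of a Gas5 transcript falls inside Gm23212, and those of the Snhg1 transcripts Snhg1-207 and Snhg1-212 fall inside Gm25855 and Gm22744.
Snord47: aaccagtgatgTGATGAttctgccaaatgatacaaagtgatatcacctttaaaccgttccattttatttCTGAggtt
Snord80: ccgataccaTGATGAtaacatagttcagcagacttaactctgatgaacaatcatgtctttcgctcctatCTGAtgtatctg
Gm23212: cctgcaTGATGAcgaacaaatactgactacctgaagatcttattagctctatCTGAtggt
Gm25855: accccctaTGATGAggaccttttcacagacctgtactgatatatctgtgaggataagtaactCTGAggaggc
Gm22744: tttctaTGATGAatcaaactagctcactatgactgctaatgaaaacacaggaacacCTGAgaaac

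The snoRNAs of Snhg5 are a near-identical pair, and Snhg6 has the longest box C/D entry of the set with both boxes. Snord50a and Snord50b, both 72 nt, differed at 1 position, C50A, counted from 1 at the 5′ end with the Snord50a base first.
Snord50a: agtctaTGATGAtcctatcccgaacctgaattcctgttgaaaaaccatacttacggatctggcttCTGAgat
Snord50b: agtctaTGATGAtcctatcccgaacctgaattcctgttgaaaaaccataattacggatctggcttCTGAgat
Snord87: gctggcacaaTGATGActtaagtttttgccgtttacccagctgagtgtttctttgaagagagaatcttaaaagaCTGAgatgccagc

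Reads were assigned to only 3 of the 27 entries, and these are printed in lower case because the box pair was not found. Snord22 lies in Snhg1, Snora24 in Snhg8 and Snora44 in Snhg12. The Snora names mark box H/ACA snoRNAs.
Snord22: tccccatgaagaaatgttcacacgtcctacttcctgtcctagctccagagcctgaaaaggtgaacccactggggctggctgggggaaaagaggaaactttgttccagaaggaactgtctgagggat
Snora24: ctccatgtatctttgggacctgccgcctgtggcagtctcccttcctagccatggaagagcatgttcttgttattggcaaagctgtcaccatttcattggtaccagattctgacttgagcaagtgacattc
Snora44: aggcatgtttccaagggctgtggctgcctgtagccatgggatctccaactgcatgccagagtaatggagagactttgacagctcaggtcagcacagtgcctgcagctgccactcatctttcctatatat

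The libraries were of similar depth. The gene tables summed to 28327434 expected counts in replicate 1 and 30234441 in replicate 2, of which the 6 hosts took 1505 and 1950 counts. Markers of cortical cell classes were present in both libraries: Slc17a7 (excitatory neurons), Gad1 (inhibitory neurons), Slc1a2 (astrocytes), Mbp (oligodendrocytes), Csf1r (microglia) and Cldn5 (endothelium) all exceeded 1 TPM, a level per transcript length scaled to the same total in every library. Gabra6, a cerebellar granule cell gene, was at 0.04 and 0.18 TPM. In this bulk tissue, fewer cells of a type and less RNA per cell cannot be told apart.

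Gas5 (ENSMUSG00000053332.13, chr1:161034422-161038539, plus strand, mm10) was the most abundant of the 6. Its level in the deposited gene table was 85.6 TPM in replicate 1, from 865 expected counts, and 100 TPM in replicate 2, from 1124. The mean was 93.0 ± 10.5 TPM (SD, n = 2), which was 5.20 times that of the next member and 9.30 times that of the lowest. Gas5 made up 57.3% and 60.04% of the summed TPM of the 6 genes. It ranked 12 of 739 long noncoding genes that reached 1 TPM in both libraries, whose median was 2.59 TPM. The deposited credibility bounds, which describe the uncertainty of assigning reads and not the spread between animals, were 80.0 to 93.1 TPM and 94.4 to 109 TPM. Those intervals did not overlap.

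Snhg8 (ENSMUSG00000104960.1, chr3:123507552-123508404, minus strand), the host of Snora24, was at 20.7 and 14.99 TPM, from 132 and 105 counts. Its mean was 17.9 ± 4.06 TPM (SD, n = 2). Snhg12 (ENSMUSG00000086290.9, chr4:132308623-132311024, plus strand), which carries Snora16a, Snora44, Snora61 and Snord99, was at 15.6 and 16.9 TPM, with a mean of 16.3 ± 0.926 (SD, n = 2). The values of these 2 hosts overlapped, and both stood well under Gas5 in each library.

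Snhg6 (ENSMUSG00000098234.7, chr1:9941959-9944118, minus strand), the host of Snord87, was at 11.4 and 10.6 TPM, from 87 and 88 counts, with a mean of 11.0 ± 0.566 (SD, n = 2). Snhg5 (ENSMUSG00000097195.9, chr9:88521050-88522929, minus strand), the host of the Snord50 pair, was at 8.30 and 12.03 TPM, with a mean of 10.2 ± 2.64 (SD, n = 2). Snhg1 (ENSMUSG00000108414.1, chr19:8723475-8726443, plus strand), which carries Snord22 and 7 snoRNA entries with Gm names, was at 7.74 and 12.2 TPM, with a mean of 9.99 ± 3.18 (SD, n = 2). The values of Snhg6, Snhg5 and Snhg1 overlapped, so these 3 have no order beyond their spread. Snhg12 lay above all 3 in both libraries, although its credibility bounds in replicate 1, 13.5 to 19.0 TPM, reached those of Snhg6, 9.10 to 14.1 TPM, and in replicate 2, 14.8 to 20.5 TPM, they overlapped those of Snhg1 and Snhg5.

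The level of Snhg1 depended on which deposited estimate was read. Its TPM of 7.74 and 12.2 lay under its own credibility bounds of 8.27 to 12.8 and 12.7 to 18.8, and the deposited posterior means were 10.4 and 15.7 TPM. Among the 14122 genes that averaged 50 counts or more over the libraries, 103 (0.729%) had a TPM under their own lower bound in both libraries. Snhg1 was the only one of the 6 hosts in that state.

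**Figure D1:**
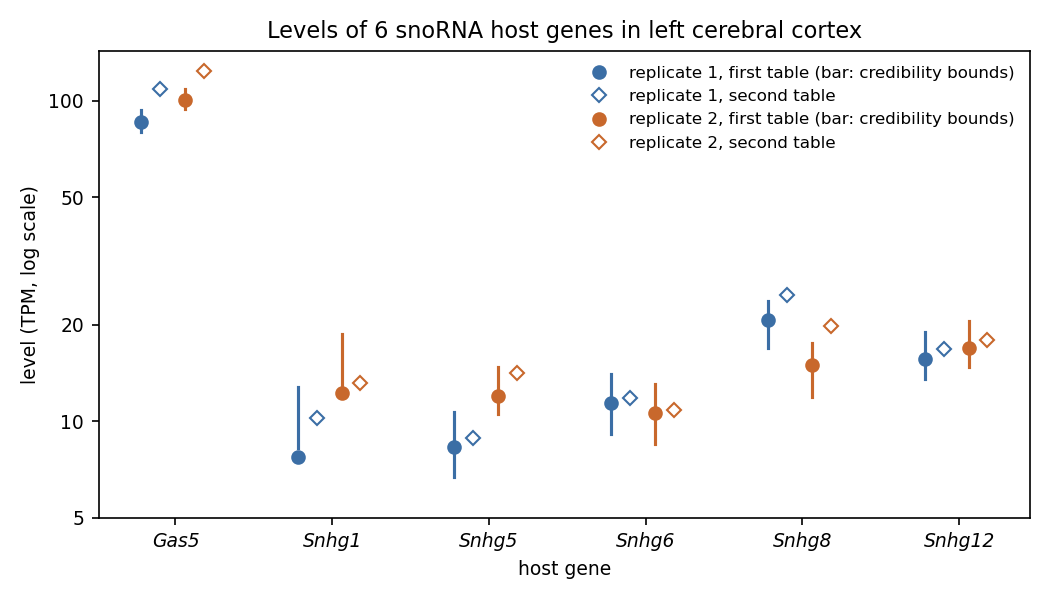
Level of each host gene (TPM, log scale) in replicate 1 (blue) and replicate 2 (orange), from the gene table (filled circles, with the deposited credibility bounds as bars) and as the sum over transcripts in the second deposited transcript table (open diamonds). Gas5 lies above 80 TPM in every value, the other 5 hosts below 25, and the Snhg1 circles sit under the foot of their bars.

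The differences between the 2 animals were modest. They are given as log2 CPM (counts scaled by library size) of replicate 2 minus replicate 1 after TMM scaling, with a standard error that covers counting only. With 1 library per animal, no difference has a replicate check, so none was tested. Snhg1 was higher in replicate 2 by 0.60 (counting SE 0.17, 1.51-fold) and Snhg5 by 0.59 (SE 0.17, 1.502-fold). Gas5 was higher by 0.24 (SE 0.065) and Snhg12 by 0.25 (SE 0.14). Snhg8 was lower in replicate 2, at -0.46 (SE 0.19, 1.38-fold), and Snhg6 differed by less than its counting error, at -0.12 (SE 0.22).

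None of the 6 hosts passed a 2-fold difference, a size reached by 1.25% of the 14122 genes. Intervals that did not overlap between the libraries were found for 1 of the 6, Gas5, against 19.8% of those genes. The median difference of the 6 was 0.25, beside -0.02 over all 14122 genes and 0.13 over the 498 long noncoding genes among them. Absolute differences larger than that of Snhg1 were found in 5.76% of genes and larger than that of Snhg5 in 6.005%. Scaling to the spike-ins in place of TMM moved the median of all genes by 0.28, to 0.25. All 6 hosts moved with it, and 5 of the 6 were then higher in replicate 2. Snhg1 stood at 0.87, Snhg5 at 0.86, Snhg12 at 0.53, Gas5 at 0.52, Snhg6 at 0.15 and Snhg8 at -0.19.

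**Figure D2:**
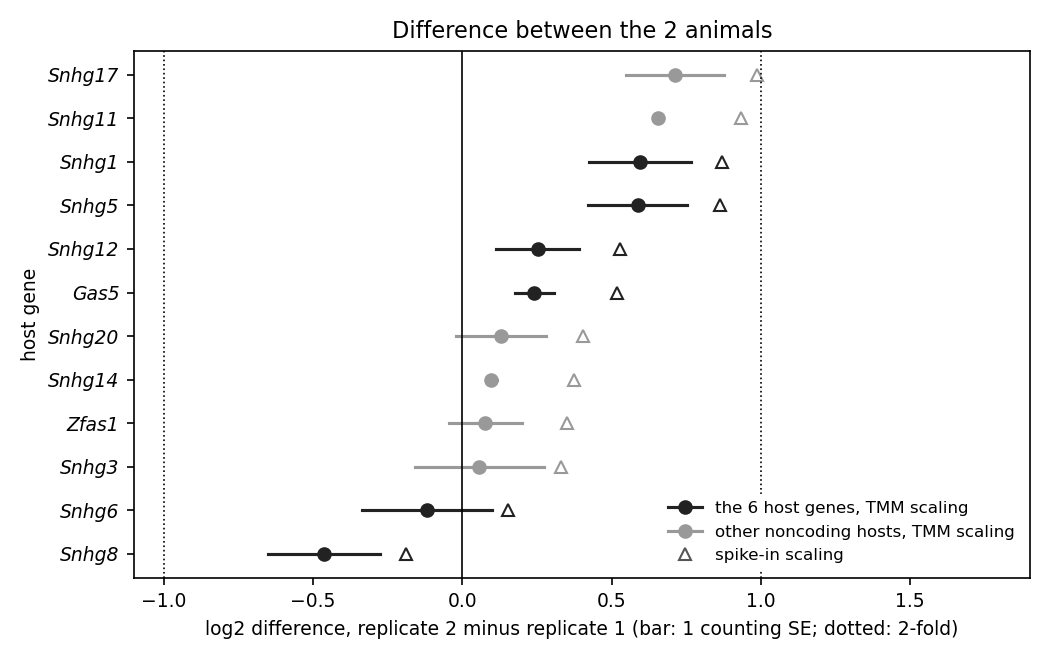
log2 difference (replicate 2 minus replicate 1) of the 6 hosts (black) and of the other snoRNA hosts listed as noncoding that averaged 50 counts or more (grey), after TMM scaling (circles, bars of 1 counting SE) and spike-in scaling (triangles). All circles lie within the dotted 2-fold lines, with Snhg17 highest at 0.71 and Snhg8 lowest at -0.46, and every triangle lies to the right of its circle.

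Other noncoding hosts gave the range in which the 6 sat. Of 15 listed symbols, Snhg4, Snhg7 and Snhg16 were not found in the annotation, and 10 of the other 12 reached 1 TPM in both libraries. Snhg14, the long noncoding host of the imprinted Snord115 and Snord116 clusters, was at 689 and 777 TPM. Snhg11, a host expressed in neurons, was at 180 and 272 TPM. Both lay above Gas5, the third of the 18 hosts on these lists. Snhg11 is listed here with the noncoding hosts, although the annotation types it as protein-coding. Zfas1 (21.2 and 24.6 TPM), Snhg20 (15.1 and 17.6) and Snhg3 (10.9 and 11.3) fell within or next to the range of Snhg8, Snhg12 and Snhg6 in the gene table. In the second table Snhg20 was far above them, at 56.5 and 62.2 TPM. All 6 of these other hosts with at least 50 counts were higher in replicate 2. Their median of 0.11 lay near the 0.13 of the 498 long noncoding genes. The share of all genes higher in replicate 2 was not counted. The largest differences were those of Snhg17, at 0.71 (3.71 and 6.63 TPM), and Snhg11, at 0.66. Among these 6 hosts, intervals did not overlap in 3 (Snhg14, Snhg11 and Snhg17), against 19.8% of the 14122 genes. Snhg14 and Snhg11 were counted more deeply than most genes, at counting SE 0.018 and 0.015 beside a median of 0.082. The 19.8% is therefore not a like background for this pair.

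The place of each snoRNA within its host was read from the annotation. In the leading transcript of each host, the one with the highest mean TPM in the first transcript table, all 27 entries lay wholly within introns and none touched an exon. Gas5-210 carried entries in 9 of its 10 introns and Snhg1-211 in 8 of 9. Snhg12-206 carried them in 4 of 4, Snhg5-201 in 2 of 4, Snhg6-203 in 1 of 3 and Snhg8-201 in 1 of 2. Apart from the doubled entries, no intron held more than 1 snoRNA.

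The distance from the end of the snoRNA to the next exon had a median of 76 nt. The entries under 100 nt from that exon, 20 of the 27, spanned 65 to 81 nt. This band was read from the same entries, and other host genes were not measured beside it. The distance back to the preceding exon was wider, from 24 to 557 nt with a median of 53. The Snord50 copies of Snhg5 were each 80 nt from the next exon, in introns of 201 nt. Snord87 in Snhg6 lay 71 nt from the next exon and Snora24 in Snhg8 lay 74 nt from it. The 7 entries outside that band were Gm26224 (278 nt), Snord78 (238 nt) and both Snord80 entries (313 and 314 nt) in Gas5, Gm23246 (121 nt) in Snhg1, and both Snora16a entries (237 nt) in Snhg12.

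**Figure D3:**
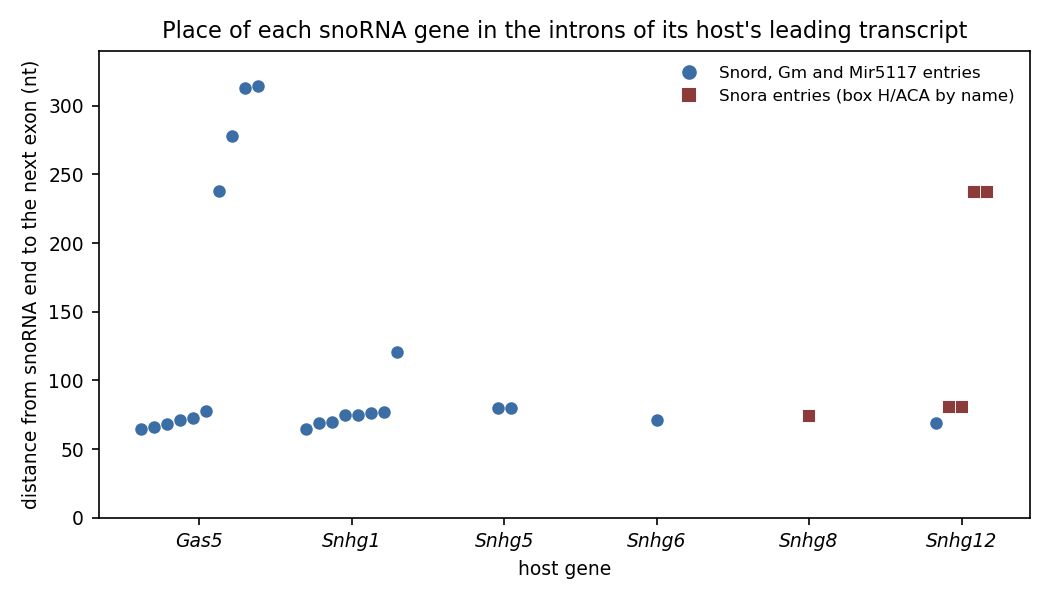
Distance in nt from the 3′ end of each snoRNA entry to the next exon of its host's leading transcript, for box H/ACA entries by name (squares) and all others (circles). Entries of every host gather between 65 and 81 nt, and Gas5 has 4 entries above 200 nt.

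Snord78 was placed differently in the other main Gas5 transcript. Gas5-224 holds a 41-base exon, its exon 7 at chr1:161037124-161037164 on the plus strand, which Gas5-210 skips. Measured to that exon, Snord78 lay 74 nt upstream, within the band of the other entries. The exon is printed from Gas5-224, in lower case since no part of it is singled out.
Gas5 exon 7: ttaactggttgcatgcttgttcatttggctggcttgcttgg
Transcripts with this exon took 29.6% and 23.6% of Gas5 TPM in the first table and 8.23% and 5.34% in the second. Transcripts that span the site and skip it took 55.6% and 54.9% in the first table and 81.8% and 80.2% in the second. Skipping was the larger class in both libraries and in both tables, but the share of the exon differed between tables by more than it did between animals.

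The transcripts of the 6 hosts numbered 67 in the annotation. A level above 0 was given to 45 of them in the first table and to 44 in the second, and 8 were at 0 in both. By TPM, most of Gas5 was spliced lincRNA without snoRNA sequence. By expected counts, which weigh long transcripts more, the lincRNA share was 61.6% and 52.2% in the first table and 55.5% and 48.0% in the second. Gas5-210, of 11 exons and 557 nt, was at 40.7 and 46.7 TPM in the first table, or 47.6% and 46.5% of the gene, and at 39.1 and 42.5 TPM in the second. Gas5-224, of 12 exons and 502 nt, was at 25.3 and 22.9 TPM in the first table but at 8.97 and 5.40 in the second. These transcripts shared 10 exons, and their first exons were 128 nt (Gas5-210) and 32 nt (Gas5-224).

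Large parts of Gas5 in the second table were assigned to transcripts that were at or near 0 in the first. Gas5-221, typed as retained intron, had 30.2 and 32.0 TPM there and 0 in the first table in both libraries. It begins inside Gm23212 and holds 47 of the 60 bases of that snoRNA. Gas5-203, a lincRNA of 10 exons, was at 17.0 and 20.8 TPM in the second table against 0.63 and 0.66 in the first. In the first table the retained intron transcripts Gas5-206, Gas5-213 and Gas5-218 each passed 5% of the gene in replicate 2. Gas5-218, whose exons hold 6 whole snoRNA entries, had similar levels in both tables, at 2.83 and 5.57 TPM in the first and 2.84 and 4.85 in the second.

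**Figure D4:**
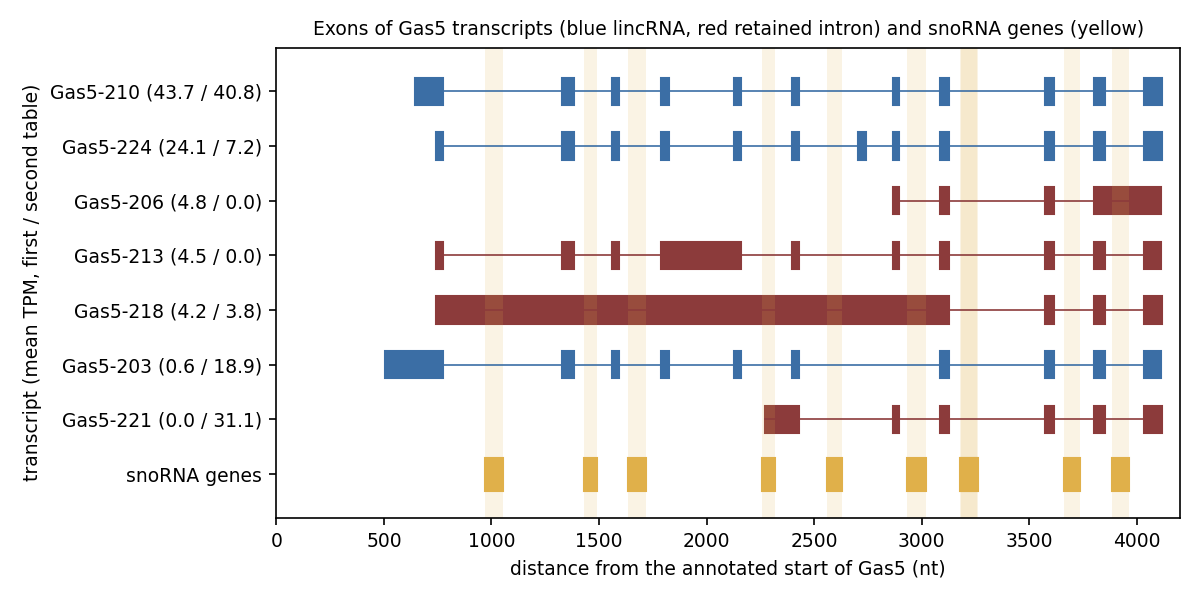
Exons (boxes) and introns (lines) of the 7 Gas5 transcripts with at least 5% of the gene's TPM in either library and either table, with the snoRNA entries in yellow, against the distance in nt from the annotated start of the gene. Numbers after each name are mean TPM in the first and second table: the snoRNAs lie in the introns of Gas5-210, and Gas5-221, at 0.0 and 31.1 TPM, starts within a snoRNA.

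Snhg1 had the least settled transcripts. In the first table Snhg1-211, a lincRNA of 10 exons, led with 5.79 and 6.89 TPM, or 74.8% and 56.3% of the gene. The second table listed it at 0 in both libraries and gave its place to Snhg1-207, at 3.11 and 6.17 TPM, and Snhg1-212, at 4.09 and 2.43 TPM. Both of these begin inside a snoRNA: Snhg1-207 holds 60 of the 72 bases of Gm25855, and Snhg1-212 holds 53 of the 65 bases of Gm22744. Snhg1-213 was at 1.37 and 2.12 TPM in the second table and at 0 in the first. Snhg1-215, a retained intron transcript with 7 whole snoRNA entries, was found in both tables, at 1.08 and 1.79 TPM and at 0.83 and 1.85 TPM, and was the higher in replicate 2 in each. Snhg1-210, Snhg1-209 and Snhg1-214 passed 5% of the gene in 1 library each, with at most 2.05 TPM.

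Snhg12 also had a different leading transcript in each table. Snhg12-206, of 5 exons, was at 10.5 and 8.99 TPM in the first table and at 1.17 and 0 in the second, where Snhg12-202 (8.10 and 7.26 TPM) and Snhg12-209 (4.07 and 4.85 TPM) led instead. Snhg12-210, with 2 whole snoRNA entries, was steadier, at 2.16 and 2.23 TPM in the first table and 1.95 and 2.49 in the second. Snhg12-204, with 3 whole entries, was at 0.49 and 2.29 TPM in the first table and at 1.53 and 2.30 in the second. Snhg12-207, at 2.07 and 2.33 TPM in the first table, was at 0 in the second.

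For the other 4 hosts both tables had the same leading transcript. Snhg8-201, of 3 exons, carried 97.53% and 83.2% of Snhg8 in the first table and 97.7% and 94.6% in the second, and the rest was Snhg8-203 and Snhg8-202 in the first table and Snhg8-202 alone in the second. Snhg6-203, of 4 exons, carried 68.7% and 57.3% of Snhg6, and 67.2% and 52.8% in the second table. Snhg6-205 followed with 15.9% and 19.8%, then Snhg6-204 with 12.5% in each library. Snhg6-202 was above 0 only in the first table and Snhg6-201 only in the second. Snhg5-201, of 5 exons, carried 43.4% and 55.7% of Snhg5, and 42.3% and 48.1% in the second table. Snhg5-203 had 19.9% in replicate 1 and 4.42% in replicate 2 of the first table, but 21.5% and 24.7% in the second. Snhg5-204 and Snhg5-206, both retained intron transcripts, had 23.6% and 28.3%, and 13.0% and 11.6%, of the gene in the first table. Snhg5-205 was above 0 only in the second table, with 12.7% and 3.50%.

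Retained intron is the annotation's own type, and it was used unevenly among the hosts. It covers 20 of the 25 Gas5 transcripts, 14 of 18 in Snhg1, 3 of 6 in Snhg5 and 1 of 3 in Snhg8, whereas all 5 Snhg6 and all 10 Snhg12 transcripts are typed lincRNA. These transcripts took 25.1% ± 5.95 (SD, n = 2) of Gas5 TPM in the first table, 33.2% ± 11.3 of Snhg1, 38.3% ± 2.26 of Snhg5 and 2.60% ± 2.99 of Snhg8. In the second table the shares were 41.9% ± 3.16, 61.4% ± 11.5, 31.7% ± 6.43 and 3.86% ± 2.24. Among all 91 noncoding genes with at least 2 transcripts, at least 1 of them typed retained intron, and a mean of at least 1 TPM, the median share was 25.1% (quartiles 11.1% and 42.7%) in the first table and 24.0% (quartiles 11.4% and 51.7%) in the second. The 91 genes include these 4 hosts, and the Gas5 share of 25.1% is the same as the first-table median. Gas5, Snhg1 and Snhg5 lay within the quartiles of the first table, and Snhg8 lay under them in both. In the second table Snhg1 lay above the upper quartile.

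Sorting transcripts by whether their exons hold a snoRNA avoids the uneven typing. Transcripts with at least 1 whole snoRNA entry took 16.6% and 22.9% of Gas5 TPM, 22.0% and 34.5% of Snhg1, 23.6% and 28.3% of Snhg5, 0.49% and 4.72% of Snhg8 and 32.5% and 46.9% of Snhg12 in the first table. No Snhg6 transcript holds one. In the second table the shares were 11.9% and 16.2% for Gas5, 29.5% and 34.9% for Snhg1, 26.5% and 19.0% for Snhg5, 2.28% and 5.45% for Snhg8 and 44.9% and 59.4% for Snhg12. The share was thus the larger in replicate 2 in 5 of 5 hosts in the first table and in 4 of 5 in the second, with Snhg5 the exception. Other genes were not sorted in this way, so these counts have no background. The Snhg8 share rests on Snhg8-202 alone, with 1.25 and 9.02 counts in the first table. In Snhg12 the largest first-table rise was that of Snhg12-204, at 3.12% and 13.5% of the gene. For the retained intron type, 4 of 4 hosts were higher in replicate 2 in the first table, against 54 of the 91 genes (59.3%), and 2 of 4 in the second, against 45 of 91 (49.5%). Transcripts without a whole entry were not all free of snoRNA sequence. In the second table, those holding only part of one took 27.7% and 25.9% of Gas5 TPM. For Snhg1 they took 70.5% and 65.1%, which left 0% for transcripts without snoRNA. By first-table expected counts, whole-entry transcripts took 33.3% and 40.8% of Gas5, 52.1% and 62.5% of Snhg1 and 48.3% and 65.0% of Snhg12. They took 23.4% and 25.5% of Snhg5 and 0.947% and 8.55% of Snhg8 counts. By second-table counts the shares were 32.2% and 39.4% of Gas5, 57.3% and 62.0% of Snhg1 and 79.0% and 88.3% of Snhg12. For Snhg5 they were 22.7% and 18.5%, and for Snhg8 5.79% and 13.2%.

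**Figure D5:**
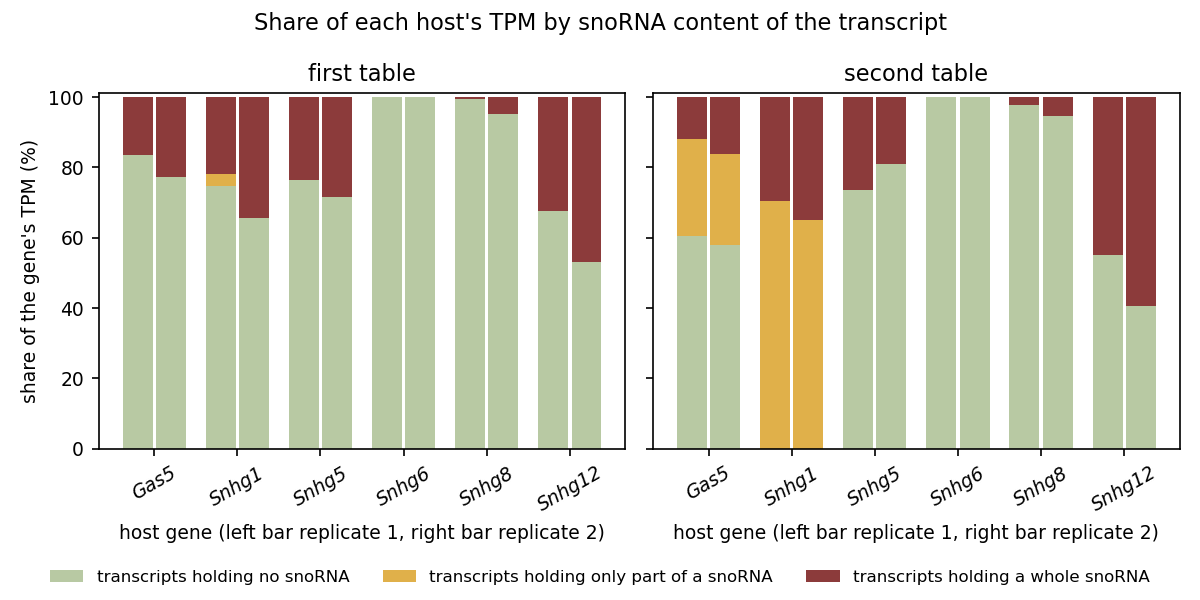
Share of each host's TPM (%) in transcripts whose exons hold no snoRNA (green), part of a snoRNA (yellow) or at least 1 whole snoRNA (red), in the first (left panel) and second (right panel) transcript table, replicate 1 and 2 side by side. Snhg6 is wholly green, Snhg12 has the largest red share in the first table, and the yellow share of Snhg1 and Gas5 appears almost only in the second table.

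The levels of the snoRNAs themselves were mostly out of reach of these files. An effective length of 0 was given to 21 of the 27 entries, all of them shorter than 100 nt, so their listed value of 0 is not a measurement. Among all 1507 annotated snoRNA genes 459 had that length, or 30.5%. The other 6 entries had effective lengths of 26 to 37 nt. Snord22 had 10.6 and 16.4 counts, which at an effective length of 26 nt became 22.5 and 33.4 TPM, above the 7.74 and 12.2 TPM of its host. Snora44 had 16.8 and 9.76 counts (31.8 and 17.9 TPM), and Snora24 had 1.94 and 0.54 counts (3.56 and 0.96 TPM). The Snora16a entries and Snora61 had none. In the second table all 27 entries were at 0, and only 10 of the 1507 snoRNA genes were above 0 in either library.

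The reads of these 3 snoRNAs and of their hosts were shared out between them. Fractional expected counts of host and snoRNA added up to whole numbers in both libraries. Snhg1 with Snord22 gave 125 and 206 counts, Snhg8 with Snora24 gave 134 and 106, and Snhg12 with Snora44 gave 204 and 255. Whether a read came from a mature snoRNA or from unspliced host RNA therefore cannot be told apart for these pairs. Gas5 and Snhg6 had whole counts without any partner, and none of their snoRNA entries received reads. Snhg5 had fractional counts, 119.24 and 197.31, with no reads on its snoRNA entries, and its partner was not found.

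The annotated start sites were compared with the pyrimidine tract that marks 5′ terminal oligopyrimidine RNAs. RefSeq (GRCm38.p6) gave 6 promoter entries for 5 of the 6 hosts, 2 of them for Gas5. In the lines that follow, 20 bases before and 30 bases from the start are printed, and capitals mark a C followed by at least 4 C or T letters at the start, or within 5 bases of it for Snhg12. The search used the gene's strand.
Gas5, chr1:161035146-161035195, plus strand: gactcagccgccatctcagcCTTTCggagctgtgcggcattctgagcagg
Snhg8, chr3:123508307-123508356, minus strand: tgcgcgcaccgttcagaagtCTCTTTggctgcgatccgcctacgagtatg
Snhg12, chr4:132308658-132308707, plus strand: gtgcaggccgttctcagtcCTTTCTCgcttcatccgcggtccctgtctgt
Snhg1, chr19:8723467-8723516, plus strand: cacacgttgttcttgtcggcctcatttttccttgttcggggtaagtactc
Snhg5, chr9:88522868-88522917, minus strand: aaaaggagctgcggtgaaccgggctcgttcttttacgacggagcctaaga
The tract stood exactly at the start in 2 of the 6 entries, those of Gas5 and Snhg8, against 823 of all 32851 promoters, or 2.51%. Among 76 promoters of genes with ribosomal protein symbols, a class known for such tracts, 14 had it, or 18.4%. Allowing the start to move by 5 bases added Snhg12, with a tract 1 base upstream, and raised the share of all promoters to 18.3%. Asking for 1 base more in the tract left Snhg8 and not Gas5, with 558 promoters (1.70%) in all. A match is a description of the letters only. The other Gas5 entry, which starts upstream at position 161034601, had no tract, and transcripts starting within 50 bases of it took 0% of Gas5 TPM in the first table and 0.678% and 0.311% in the second. Transcripts starting within 50 bases of the entry with the tract took 45.0% and 42.1% in the first table and 14.5% and 15.4% in the second. Gas5-224 starts 3 bases before that site and Gas5-210 starts 99 bases before it. For Snhg8, transcripts starting within 50 bases of the tract took only 2.47% and 16.8% of TPM in the first table and 2.28% and 5.45% in the second, and the leading Snhg8-201 starts 68 bases before it.

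The genes next to each host are given with their own levels and differences. Slc3a2, an amino acid transporter subunit, starts 105 nt from Snhg1 on the opposite strand. It was at 69.1 and 69.6 TPM with a log2 difference of -0.04 (counting SE 0.046), whereas Snhg1 differed by 0.60. Wdr74, on the other side, differed by 0.15 (SE 0.11). Zbtb37 overlaps 428 nt of the Gas5 start on the opposite strand and was at 9.36 and 9.53 TPM, at -0.03 (SE 0.057). The library kit is directional, but no source used here states whether the reads were counted by strand, so the reads of such overlaps are uncertain. Mcmdc2 overlaps 127 nt of Snhg6 on the opposite strand and was at 0.45 and 1.36 TPM.

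Prss12, 954 nt from Snhg8, was at 7.53 and 10.6 TPM and differed by 0.41 (SE 0.10), while Snhg8 stood at -0.46. Trnau1ap, 738 nt from Snhg12, was at 10.9 and 13.4 TPM and differed by 0.26 (SE 0.14), close to the 0.25 of Snhg12. Syncrip, next to Snhg5 at 38475 nt, was at 30.1 and 29.1 TPM. Sgk3 was at 4.43 and 6.56 TPM, Tcf24 and Rab42 were under 1 TPM, and Gm37362, Gm22985 and Gm9369 were at 0.

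RNAs for the listed proteins that bind and process snoRNAs were all detected. Of 11 listed genes for box C/D proteins and assembly factors, 6 were higher and 5 lower in replicate 2, with a median difference of 0.06. None passed 2-fold, and 1 had intervals that did not overlap, against 1.25% and 19.8% of the 14122 genes. With spike-in scaling 11 of 11 were higher. The gene with intervals apart was Nop56, a core protein of the box C/D particle, at 38.5 and 53.5 TPM and a difference of 0.42 (counting SE 0.060). Its partner Nop58 was at 25.6 and 32.0 TPM, at 0.28 (SE 0.060). Fbl, the methyltransferase fibrillarin, was at 21.2 and 22.7 TPM, and Snu13, which binds the box C/D fold, was at 58.4 and 60.7 TPM. Of the 6 listed box H/ACA genes, 2 were higher and 4 lower, or 5 higher with spike-in scaling, and none had intervals that did not overlap. Dkc1, the pseudouridine synthase dyskerin, was at 19.2 and 25.6 TPM, Nop10 at 25.7 and 26.0, Nhp2 at 23.2 and 25.8 and Gar1 at 22.8 and 20.2. Gar1, at -0.32 (SE 0.16), and the assembly factor Shq1, at -0.22 (SE 0.16), had the largest differences of that list, which were -0.05 and 0.06 with spike-in scaling.

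Factors of nonsense-mediated decay were at 1 TPM or more in both libraries in 15 of 15 cases, with a median level of 20.6 TPM. In replicate 2, 3 were higher and 12 lower, with a median of -0.07 and none past 2-fold, against 1.25% of the 14122 genes. With spike-in scaling 14 of the 15 were higher, as the whole library moved by 0.28. Intervals did not overlap in 1 of them, against 19.8% of the 14122 genes. It was Upf2, a core factor, at 22.2 and 18.6 TPM. Its difference was -0.29 (counting SE 0.049), or -0.01 with spike-in scaling. Abundant members of the list were Rnps1 (57.4 and 60.4 TPM), Smg5 (41.9 and 40.8) and Eif4a3 (40.0 and 40.0).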

How the data were processed

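Each library had a gene table and 2 transcript tables. Per the deposited readme text, values rest on build mm10 and GENCODE M21. Aligner and quantifiers: not given in the sources used here. The gene table and the first transcript table have the columns that RSEM writes, and the second has those that kallisto writes. Expected counts are the authors' estimated counts per feature, not normalized. TPM values were deposited by the authors, scaled over all features including spike-ins. The percent of a gene's TPM per transcript was deposited in the first table and computed from TPM for the second. The credibility bounds are deposited scores, and their level is not stated.

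Levels are the mean and SD of deposited TPM. Expected counts were rounded for edgeR 4.0.16 (R 4.3.3), scaled by TMM, and turned into log2 CPM with a prior count of 1. The counting SE is that of 2 Poisson counts. The only group has 2 animals and so no contrast, and no test was made. The calculation was tested on simulated data with 200 changed genes. Exon, snoRNA and neighbour positions come from the GENCODE M21 annotation, matched by gene identifier. RefSeq promoters run from 250 bases before to 50 after each start and were matched by symbol for 5 of the 6 hosts. Snhg6 was not matched.

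The members and lists were chosen with earlier results of these data known. Of the 26 listed snoRNA symbols 12 were found within the hosts, so entries were taken by position. Named genes are the 6 hosts, their transcripts with at least 5% of the gene in either library and either table, the listed snoRNAs, neighbours, the 3 noncoding genes nearest to Gas5 in level, and per list up to 4 genes by TPM and 2 by difference. A few genes that this rule names are not reported here. The snoRNA distances, start shares, exon 7 and snoRNA-content shares were chosen after seeing the data. Alternatives were the second table, TPM without structural features, other scalings (DESeq2 1.42.0 size factors, totals, spike-ins), priors and filters. Reads were assigned to the reference sequence, and alleles of the cross were not analysed here.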

Additional observations from a re-analysis of the deposited data

How the results depend on the processing

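The second transcript table moved the mean level of Gas5 to 116 TPM, of Snhg8 to 22.3 and of Snhg12 to 17.4, past the spread between animals. It moved the leading transcript's share to 35.1% for Gas5-210, 0% for Snhg1-211 and 3.49% for Snhg12-206, and the retained intron share to 41.9% for Gas5, 61.4% for Snhg1 and 31.7% for Snhg5. TPM rescaled over nuclear protein-coding and long noncoding genes, which held 50.3% and 52.0% of TPM, was 182 for Gas5, 19.5 for Snhg1, 19.8 for Snhg5, 21.5 for Snhg6, 35.0 for Snhg8 and 31.8 for Snhg12, since the total is shared by fewer features. Spike-in scaling put Gas5 at 0.52 and Snhg12 at 0.53. The count of genes past 2-fold, 177, became 5167 with no filter, 48 at a mean of 200 counts and 339 with spike-in scaling. Promoters with a tract numbered 1236 with 1 base fewer, 558 with 1 base more, which lost the Gas5 entry, and 6027 with a start within 5 bases. DESeq2 size factors, totals and priors of 0.5 and 5 kept each host's difference within its counting error. Leaving out a replicate leaves the other's value, given in the text. No paired analysis was possible because there is only 1 group. Depth limits Snhg6 most, at 87 and 88 counts.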

Other observations

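Protein-coding genes also host snoRNAs in their introns. The list of such genes includes Cct6a, which the annotation types as processed transcript. All 26 listed genes reached 1 TPM in both libraries, with a median of 130 TPM beside 13.6 for the 6 noncoding hosts, and the lists overlapped: Rcc1 was at 5.01 and 7.36 TPM and Ppan at 9.18 and 10.6. The most abundant were Hspa8, a constitutive heat shock protein 70 chaperone, at 1032 and 718 TPM, Tpt1 at 489 and 486, Eef2, the translation elongation factor, at 437 and 472, and Eif4a2, an RNA helicase of translation initiation, at 447 and 454. In replicate 2, 7 were higher and 19 lower, with a median of -0.07, and none passed 2-fold, against 1.25% of the 14122 genes. Spike-in scaling turned this to 23 higher. Hspa8 stood at -0.64 (counting SE 0.012), and the second table also had it lower in replicate 2, at 1316 and 938 TPM. Rps12, a ribosomal protein gene, stood at -0.72 (124.8 and 74.5 TPM, counting SE 0.073), but its intervals overlapped and the second table had it higher in replicate 2, at 118 and 140.04 TPM. With spike-in scaling Hspa8 stood at -0.37 and Rps12 at -0.44. Intervals did not overlap in 7 of the 26, with 3 higher and 4 lower in replicate 2, against 19.8% of the 14122 genes either way.

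The listed genes for regulators of 5′ terminal oligopyrimidine RNAs were all detected, 4 higher and 4 lower in replicate 2, or 7 higher with spike-in scaling. Larp1, which binds the tract, was at 42.1 and 40.0 TPM, Mtor, the growth-signal kinase, at 39.5 and 44.3, and Rptor, its partner in complex, at 28.7 and 27.2. Larp4 was at 31.9 and 25.7 TPM. The gene with the largest difference was Eif4ebp2, an inhibitor of cap-dependent translation, at -0.44 (counting SE 0.044), or -0.16 with spike-in scaling. Its intervals did not overlap.

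The 3 long noncoding genes nearest to Gas5 in level, by distance in log2(TPM + 1) over the 2 libraries, were Gm3764 (80.4 and 93.4 TPM, distance 0.14), Xist (78.2 and 94.2 TPM, distance 0.16), the RNA of X inactivation, and Peg13 (107.6 and 113 TPM, distance 0.37), an imprinted noncoding gene. With 2 libraries this is a likeness of level only.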
